A study of Mus musculus with 4 samples.

Results

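The genes described here build and use the antioxidant defences of mouse embryonic stem (ES) cells: Gclc and Gclm (glutathione synthesis), Sod1, Sod2, Cat and Prdx1 (removal of superoxide and peroxide), Txn1 and Txnrd1 (the thioredoxin system) and Nqo1 and Hmox1 (quinone and haem breakdown). These 10 genes were chosen by function and taken by their symbol in the platform's annotation, out of 18193 genes with a probe set of 1 symbol; the low signals of Gclm and Sod2 in the homozygous arrays were known when the set was chosen. Of the 10, 9 had probe sets of their own, 22 in all, and each of the 9 passed the signal filter with its brightest probe set, as 19 of the 22 probe sets did. The 5 probe sets that list Prdx1, a peroxiredoxin gene, also list a predicted gene, so no value is given for it.

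The arrays compare ES cells with both copies, 1 copy or no copy of BAF250 disrupted. BAF250 is the ARID-domain subunit of a SWI/SNF chromatin remodelling complex. There were 4 arrays, each from 1 culture: the BAF250 knock-out homozygous lines ko1 and ko2, the BAF250 knock-out heterozygous line het, and wild type ES cells. All of these cells grew without feeders on gelatin in GMEM with glutamine, pyruvate, nonessential amino acids, fetal bovine serum, beta-mercaptoethanol (a reducing agent) and leukocyte inhibitory factor, so every group shared the same thiol supplement. The strain, the altered part of the gene, the passage and the relation between ko1 and ko2 are not given in the sources used, and nothing says that arrays came from repeated cultures. Signals are MAS5 intensities on a linear scale. A probe set is called above background where it exceeds the brightest of 27 unspiked bacterial control probe sets of its array (7.57 for wild type, 6.92 for het, 5.55 for ko1 and 3.82 for ko2).

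The wild type array was brighter than the others, with a median signal of 4.01 against 2.61 to 2.74. Over the 13729 genes tested, the median log2 difference was -0.75 for homozygous minus wild type, -0.68 for heterozygous minus wild type and -0.03 for homozygous minus heterozygous. Differences below are log2 values with that median subtracted, while the p-values of the limma fit, whose arrays were not centred, refer to the difference with that shift included. The actin control was 5.01 times as bright at its 3′ as at its 5′ end in ko1, 2.61 times in ko2, 2.86 times in het and 1.30 times in wild type. The labels give BAF250 without a letter. Of 2 probe sets for Arid1a (BAF250a), the brighter read 7.03 and 3.57 in ko1 and ko2, 109 in wild type and 50.4 in het. The other read 17.3 in ko1, above its background, 1.06 in ko2, 42.9 in wild type and 24.1 in het, and whether either lies in the altered part of the gene is not known here. The 8 markers of pluripotent ES cells were above background on all 4 arrays, but their summed signal was 3188 in wild type, 1906 in het, 746 in ko1 and 860 in ko2. The 8 markers of extraembryonic endoderm summed to 5909 and 3388 in ko1 and ko2, with all 8 above background, and to 141 in wild type and 96.2 in het. The lists for fibroblasts, trophoblast, neural cells and blood summed to between 19.2 and 53.5 on any array. The part of these differences in RNA quality and cell identity in the values below was not tested, and fewer cells of a type cannot be told apart from less RNA per cell.

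Glutathione is a small thiol made in the cytosol. Glutamate-cysteine ligase, a catalytic subunit (Gclc) with a modifier subunit (Gclm) that raises its efficiency, catalyses the limiting step. Superoxide dismutases turn superoxide into hydrogen peroxide, which catalase, peroxiredoxins and glutathione peroxidases remove. Thioredoxin is kept reduced by thioredoxin reductase with NADPH. The transcription factor Nrf2 (Nfe2l2), held in check by Keap1, activates many of these genes through antioxidant response elements.

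Gclm gave the clearest pattern among the members. Its brighter probe set, 1418627_at, read 52.8 in wild type, 27.0 in het, 6.06 in ko1 and 6.25 in ko2. Both homozygous signals lay far below the other arrays. The ko1 signal was just above the background of its array (5.55), and the ko2 signal was further above its own (3.82). Wild type was 8.72 times as bright as ko1 and 8.46 times as bright as ko2. After the shift of the median gene was taken off, the homozygous lines stood at -2.22 ± 0.64 (SE) against wild type, a 4.68-fold lower level, and at -1.99 against het. The lines were close to each other, at -2.41 for ko1 and -2.20 for ko2 against wild type. These values chose the gene and carry no test here. The other Gclm probe set, 1439050_at, read between 0.409 and 0.977, below background on all 4 arrays, and did not pass the filter, so the pattern rests on 1 probe set. In het, Gclm stood at -0.27 ± 0.74 (SE) against wild type, so relative to the median gene the difference of that single array was no larger than its error. With the shift of the median gene included it was -0.95 and did not pass (limma adjusted p = 0.710).

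Gclc, the catalytic partner, did not share that pattern. Its probe set 1455959_s_at read 11.5 in wild type, 10.1 in ko1, 3.66 in ko2 and 1.16 in het. The ko1 value lay above its background and the ko2 value below it, and the lowest signal was that of het, also below background. Homozygous minus wild type was -0.09, with 0.39 in ko1 and -0.75 in ko2. The other probe set, 1424296_at, ran from 2.24 to 5.52 and lay below background on all 4 arrays. Heterozygous minus wild type was -2.05 ± 1.22 (SE) on the brighter probe set (limma adjusted p = 0.639), a size that rests on a het signal below background, while the dimmer one gave -0.15.

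The bases upstream of Gclm and Sod2, 2 of the 3 measured members with both homozygous signals below the other arrays, are shown for what they hold near the start site. The sequences are from RefSeq, build GRCm38.p6, plus strand. The Gclm stretch is chr3:122245307-122245486, ending 71 bases before the start site of its window, with capitals marking the only match to TGACNNNGC, a core of the antioxidant response element, on either strand. The Sod2 stretch is chr17:13007659-13007838, ending at the base before the start site, with capitals marking matches to GGGCGG, the core of GC boxes bound by Sp1-type factors.
Gclm: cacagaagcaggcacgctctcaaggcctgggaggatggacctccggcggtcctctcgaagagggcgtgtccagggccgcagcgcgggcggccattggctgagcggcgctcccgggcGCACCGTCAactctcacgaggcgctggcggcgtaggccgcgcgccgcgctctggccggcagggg
Sod2: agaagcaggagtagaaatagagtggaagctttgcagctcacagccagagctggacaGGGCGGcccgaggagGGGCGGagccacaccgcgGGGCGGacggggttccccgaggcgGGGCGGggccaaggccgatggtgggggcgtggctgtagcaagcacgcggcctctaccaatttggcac
In Gclm the match lay on the minus strand from -134 to -126. Sod2 had no TGACNNNGC in its window of 300 bases (250 before to 50 after the start) and 4 GGGCGG matches, all on the plus strand; Gclm also had 4 GGGCGG matches in its full window, which are not capitalised. TGACNNNGC was found on either strand in 12.4% of all 32851 promoter windows and GGGCGG in 35.7%; by gene, 14% and 38.2% of 27025 genes held them. Windows were found for 8 of the 10 members, 10 windows in all. Of those 8 genes, 4 held TGACNNNGC and all 8 held GGGCGG. In the lists of the same pathways described below, 22.4% of 107 genes held TGACNNNGC and 73.8% held GGGCGG. The other 2 measured members with TGACNNNGC were Sod1 and, at one of its 3 start sites, Txnrd1; Prdx1 held it too. They are shown with 20 or 30 flanking bases, Txnrd1 at chr10:82859084-82859152 and Sod1 at chr16:90220686-90220734, both plus strand.
Txnrd1: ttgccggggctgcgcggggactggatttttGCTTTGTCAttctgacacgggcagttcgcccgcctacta
Sod1: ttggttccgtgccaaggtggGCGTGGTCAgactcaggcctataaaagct
Among the 3 measured genes with this match, Gclm stood at -2.22, Sod1 at -0.61 and Txnrd1 at -0.56 in homozygous minus wild type. Of the measured genes with a window but no match, Sod2 stood at -1.79, Nqo1 at -0.96, Txn1 at -0.27 and Cat at 1.34. These values are set beside the matches with no test, and a match describes the sequence, not binding.

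**Figure D1:**
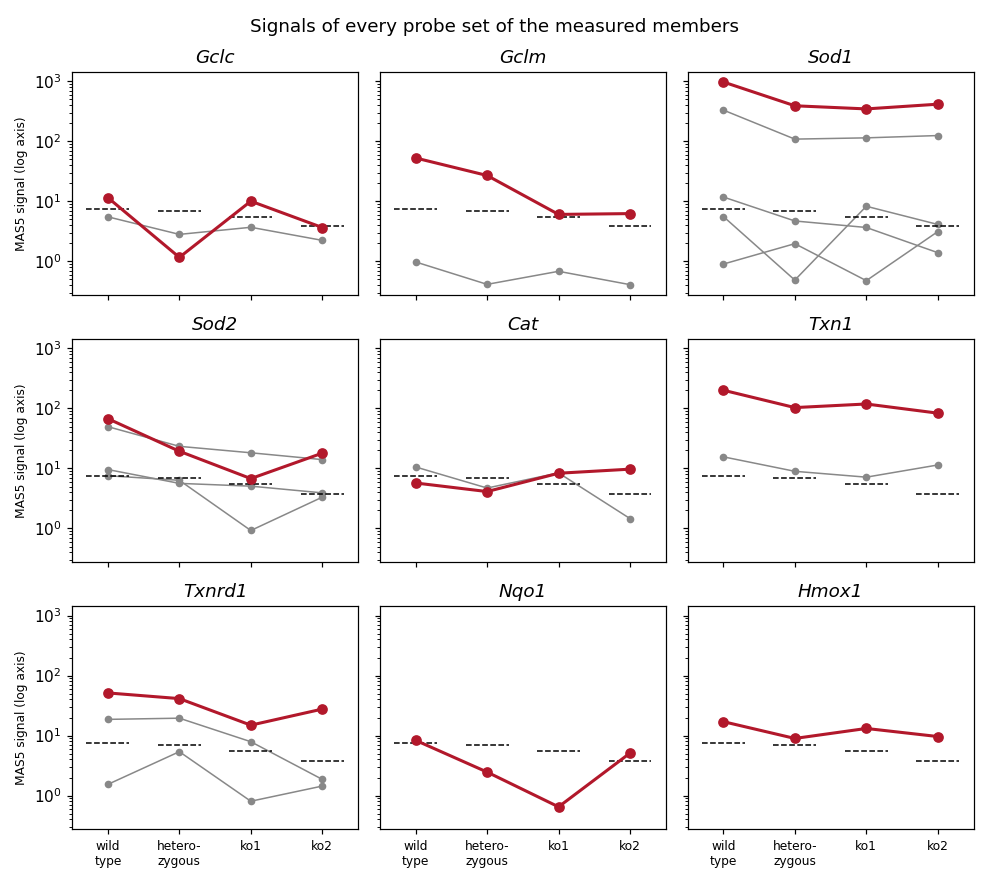
Signals (MAS5, log axis) of every probe set of the 9 measured members on the wild type, heterozygous, ko1 and ko2 arrays. Red lines join the values of the probe set with the highest mean signal, grey lines those of the others, and dashes mark the background of each array. The Gclm line drops from 52.8 in wild type to 6.06 in ko1 and 6.25 in ko2, while Gclc, Nqo1 and Cat run close to background.

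Sod2, the manganese superoxide dismutase of the mitochondrial matrix, had 4 probe sets, and on each of them both homozygous signals were below wild type and het. The brightest, 1417193_at, read 67.6 in wild type, 19.4 in het, 6.78 in ko1 and 18.0 in ko2. Here ko2 lay just under het, and ko1 stood well apart. Probe set 1448610_a_at read 49.8 in wild type, 23.4 in het, 18.3 in ko1 and 14.1 in ko2, so the order of the homozygous lines was turned round. The other pair of probe sets was dim: 1417194_at read 9.59, 5.65, 5.07 and 3.92 in wild type, het, ko1 and ko2, and 1454976_at lay below background on all 4 arrays. Homozygous minus wild type was -1.79 ± 0.62 (SE) on the brightest probe set, with -2.62 in ko1 and -1.12 in ko2, and -0.85 on 1448610_a_at, -0.25 on 1417194_at and -0.96 on 1454976_at. The size of the difference thus depended on the probe set. Which line was lower also varied: ko1 on 1417193_at and 1454976_at, ko2 on 1448610_a_at and 1417194_at. The actin ratio was highest on the ko1 array (5.01 against 2.61 for ko2), and its part in these Sod2 values was not tested.

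Against het the homozygous lines stood closer in Sod2 than in Gclm. Homozygous minus heterozygous was -0.73 ± 0.62 (SE) for Sod2 on its brightest probe set and -0.50 on 1448610_a_at, beside -1.99 ± 0.64 (SE) for Gclm; the genes were not tested against each other. In het, Sod2 stood at -1.09 ± 0.71 (SE) against wild type on its brightest probe set, and at -0.39, -0.02 and 0.45 on 1448610_a_at, 1417194_at and 1454976_at. The first value, which is -1.77 with the shift of the median gene included as in the test, did not pass (limma adjusted p = 0.588, unadjusted p = 0.0169). The homozygous and heterozygous comparisons share the wild type array, so their values are set side by side and not correlated.

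Sod1, the copper-zinc dismutase of the cytosol, read 976 in wild type and 392, 347 and 416 in het, ko1 and ko2 on 1451124_at. The other bright probe set, 1459976_s_at, read 332 in wild type and 109, 114 and 125 in the same order. On both, het and the homozygous lines lay together and wild type apart. Homozygous minus wild type was -0.61 and heterozygous minus wild type -0.63 ± 0.96 (SE) on the first (limma adjusted p = 0.696), and homozygous minus heterozygous was -0.01 ± 0.83 (SE), an error too wide to show a moderate difference between the homozygous lines and het. The 3 dimmer Sod1 probe sets ranged from 0.476 to 11.8 and did not agree in direction (-1.31, 0.81 and 1.16 against wild type).

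Cat, which encodes catalase of the peroxisome, was the only measured member above both other arrays in both homozygous lines, and only on 1 of its probe sets. On 1416430_at it read 5.73 in wild type and 4.12 in het, both below background, and 8.33 (ko1) and 9.74 (ko2) in the homozygous lines. On 1416429_a_at it read 10.6 in wild type, 4.72 in het, 8.44 in ko1 and 1.46 in ko2. Homozygous minus wild type was 1.34 on the first and -0.61 on the second. The probe sets disagreed in sign, so no direction is given for Cat.

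Txn1, which encodes cytosolic thioredoxin, read 202 in wild type, 104 in het, 119 in ko1 and 83.6 in ko2 on 1416119_at. Het lay between the homozygous lines. Homozygous minus wild type was -0.27, homozygous minus heterozygous -0.02 and heterozygous minus wild type -0.28 ± 0.66 (SE), all within the middle of the distribution over genes. The dimmer probe set 1456734_at, above background on all 4 arrays, gave 0.00 for homozygous minus wild type. Thioredoxin thus moved with the median gene on both.

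Txnrd1, the cytosolic thioredoxin reductase, had both homozygous signals below those of the other arrays on all 3 of its probe sets, in the signals as deposited. On 1421529_a_at it read 51.5 in wild type, 41.4 in het, 14.9 in ko1 and 27.7 in ko2. On 1424486_a_at it read 18.6, 19.5, 7.91 and 1.86 in that order, the ko2 value below background. The third probe set was below background on all 4 arrays. Homozygous minus heterozygous was -0.97 on the first and -2.08 on the second, larger than the -0.56 and -1.30 against wild type. In het, Txnrd1 stood above the median gene against wild type (0.37 ± 0.65 (SE), limma adjusted p = 0.906). The lines were far apart on each probe set and in opposite order, with ko1 the lower on 1421529_a_at and ko2 the lower on 1424486_a_at.

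Nqo1, a quinone reductase widely used as a readout of Nrf2 activity, was dim. It read 8.34 in wild type and 5.12 in ko2, above background, and 2.47 in het and 0.650 in ko1, below it. The single low homozygous value set the difference from wild type (-2.19 in ko1, 0.11 in ko2). Hmox1, the inducible haem oxygenase, read 17.1 in wild type, 8.97 in het, 13.2 in ko1 and 9.65 in ko2, above background on all 4 arrays. Homozygous minus wild type was 0.17 and homozygous minus heterozygous 0.34, so Hmox1 lay near the median gene.

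**Figure D2:**
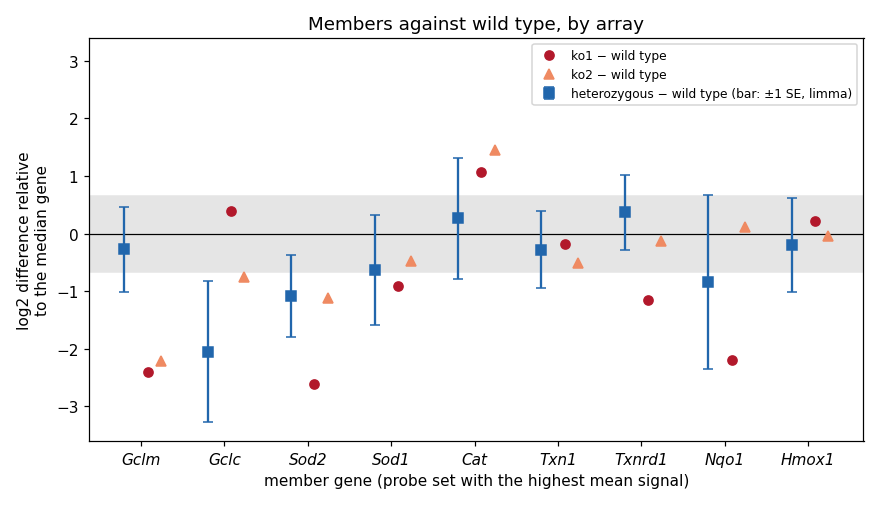
Log2 difference from wild type, with the median over all tested genes taken off, for the 9 measured members on the probe set with the highest mean signal: heterozygous (squares, bars ± 1 SE of the limma fit), ko1 (circles) and ko2 (triangles). The grey band holds the middle 50% of all tested genes for heterozygous minus wild type (-0.67 to 0.65); Gclm at -2.41 and -2.20 is the only member with both homozygous arrays below -2.

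Over the 9 measured members, the median difference was -0.56 for homozygous minus wild type (range -2.22 to 1.34), against 0 for all genes by construction and the middle 50% of genes between -0.63 and 0.74. For homozygous minus heterozygous the median of the members was -0.02 (range -1.99 to 1.92). Both homozygous signals were below wild type and het in 3 of the 9 (Gclm, Sod2 and Txnrd1), where 26.9% of all tested genes were, and above both in 1 of the 9 (Cat), where 11% of genes were. With each array centred on its median gene the member counts were again 3 and 1, with 21.5% and 18.1% of genes. A count of 3 of 9 is near the background share, and the comparison was used to choose the set, so nothing is read from it. With ko1 left out, ko2 lay below both other arrays in 4 of 9 members (38.1% of genes), and with ko2 left out, ko1 did in 5 of 9 (36.6% of genes).

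The comparison of het with wild type was not itself used to choose the members and was tested, though it shares the wild type array with the comparison that was. It asks whether the loss of 1 copy goes with a change in these genes, on 1 array a side. None of the 9 members passed in the limma fit with Benjamini-Hochberg adjustment over all genes, at a threshold of 0.05, where 0.0146% of all genes did (2 of 13729). At an unadjusted p under 0.05 there were 2 members, Gclc (unadjusted p = 0.0306) and Sod2, where 7.57% of all genes were, and 0 when the arrays were centred on the median gene. The members' median was -0.28, with 7 of 9 below the median gene and a range from -2.05 (Gclc, with het below background) to 0.37 (Txnrd1). All 9 were lower in het than in wild type in the signals as deposited, as 75.9% of all genes were. Both arrays are single, so the fit took their spread from the homozygous pair.

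The neighbouring genes of the same pathways were taken from 7 lists of 126 genes by function. Of these, 116 had a probe set of 1 symbol and 98 passed the signal filter. In homozygous minus wild type 1 rose (Gpx3), 4 fell (Gpx4, Glo1, Cbr3 and Pgd) and 93 did not pass (limma, adjusted over all genes). Over all genes 0.401% rose and 0.612% fell. An unadjusted p under 0.05 in the same fit was found for 17 of the 98, beside 11.9% of all genes. The 98 genes had a median difference of 0.13, with 44 below the median gene. That median was -0.0255 without ko1 and 0.0258 without ko2. Each fall lost its call when the arrays were centred on the median gene or quantile normalized, where over all genes the calls went from 55 risen and 84 fallen to 45 and 5, and to 32 and 1. The falls also lost their calls with a sixteenth (1/16) of the pseudocount, with no signal filter, with probe sets averaged and without the intensity trend.

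Most of these calls stood in the list of glutathione peroxidases, reductase and glutaredoxins (11 tested, 1 rose, 2 fell, median 0.22, or -0.03 without ko1). Gpx3, the secreted glutathione peroxidase, read 0.642 in wild type and 0.757 in het, both below background, and 31.3 (ko1) and 27.5 (ko2) in the homozygous lines. With wild type and het counted at their background, its homozygous signal was at least 3.87-fold higher than wild type (limma adjusted p = 0.00742) and at least 4.23-fold higher than het (limma adjusted p = 0.00920). Relative to the median gene these bounds were 6.49-fold and 4.33-fold. Gpx3 was also the only gene of the 98 to pass against het, where 0.758% of all genes passed in either direction. Its call against wild type was lost with a sixteenth (1/16) of the pseudocount, after quantile normalization, with no signal filter, with probe sets averaged and without the intensity trend (adjusted p from 0.0522 to 0.545), while the fitted difference, set by wild type signals below background, stayed at 5.05 or more in those settings. The extraembryonic endoderm markers were high in the same arrays (sums of 5909 and 3388 against 141 and 96.2), and their part in the Gpx3 signal was not tested.

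Gpx4, the peroxidase that reduces lipid hydroperoxides, went the other way. It read 287 in wild type, 134 in het, 45.8 in ko1 and 60.4 in ko2 on its brightest probe set (-1.69 ± 0.56 (SE), limma adjusted p = 0.0138), and 217, 124, 101 and 82.0 in the same order on the other (-0.50). Glo1, the glyoxalase that uses glutathione to clear methylglyoxal, read 157, 68.7, 36.1 and 34.8 (-1.38 ± 0.53 (SE), limma adjusted p = 0.0316), with -0.70 on the probe set next in brightness. Both homozygous lines were below het in each. Gsr, glutathione reductase, read 45.0 in wild type, 20.2 in het, 8.38 in ko1 and 10.8 in ko2 without passing (-1.42, adjusted p = 0.0790). Gpx7, an endoplasmic reticulum peroxidase, read 6.67 and 6.46 in ko1 and ko2 and was below background in wild type and het, and did not pass. In this list 3 of 11 genes had both homozygous arrays below the others after centring, where 21.5% of all genes did, and 4 had both above, where 18.1% did.

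Of the other Nrf2 targets and genes of NADPH, iron and haem handling (24 tested, 0 rose, 2 fell, median 0.29, or 0.06 without ko2), Cbr3, a carbonyl reductase, read 40.2 in wild type, 24.2 in het, 8.12 in ko1 and 1.72 in ko2. With ko2 counted at the background level, its homozygous signal was at least 4.30-fold lower than in wild type relative to the median gene (limma adjusted p = 0.0206). Pgd, a pentose phosphate enzyme that makes NADPH, read 72.0, 38.3, 15.3 and 14.5 in wild type, het, ko1 and ko2 (-1.48 ± 0.56 (SE), limma adjusted p = 0.0316). Its 3 other probe sets gave -0.57, -0.32 and -0.01, so the call rests on the brightest. Blvra, a biliverdin reductase, read 12.7 and 5.72 in ko1 and ko2, with wild type and het below background, and did not pass. Its level was at least 1.89-fold above wild type relative to the median gene. In the signals as deposited the bound was 1.12-fold, with ko2 under the wild type background. Abcc1, an exporter of glutathione conjugates, read 10.8 and 7.67 in ko1 and ko2, with wild type and het below background. It was at least 2.02-fold above wild type relative to the median gene and 1.20-fold as deposited, while its other probe set gave -1.18. Nqo2, a relative of Nqo1, read 13.9 in wild type and was below background on the other 3 arrays. Neither passed. Me1, malic enzyme, did not pass either, though it read 56.5 and 29.6 in ko1 and ko2 against 25.3 in wild type and 8.47 in het.

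None of the other 5 lists had a gene that passed. In these lists 0 to 3 genes each had an unadjusted p under 0.05 in the same limma fit (11.9% of all genes). For glutathione synthesis and cysteine supply (10 tested, median -0.14, or -0.07 without ko2), Slc3a2, a heavy chain of amino acid exchangers, stood at 0.66 and was above background on all 4 arrays. Cth, cystathionine gamma-lyase, read 14.0 in wild type and 7.07 in ko2 and was below background in het and ko1. The other ends of this list have no measured size: Oplah was below background on all 4 arrays, and Slc1a5, a glutamine transporter, on all but ko2 (5.64). Gss, which completes glutathione after the ligase step, read 15.9 in wild type and 7.38, 8.06 and 6.10 in het, ko1 and ko2, a difference of -0.36. For the glutathione transferases (17 tested, median -0.36, or -0.22 without ko2), Gsta4, which conjugates lipid aldehydes, was lowest at -1.21 and read 222, 124, 58.6 and 55.0 in wild type, het, ko1 and ko2 (adjusted p = 0.0698). Gstt1, next by its fitted value, was below background on all 4 arrays. The highest by fitted value were Gstz1 and Gstm3, in both of which wild type was below background. Gstm3 was at least 2.43-fold above wild type relative to the median gene and 1.45-fold as deposited. It was brightest in het, at 19.1 against 13.6 in ko1 and 8.92 in ko2, and homozygous minus heterozygous was -0.73. For Gstz1, whose homozygous signals lay under the wild type background, no fold is given. Its het signal of 5.59, below background, lay between those of ko1 (6.68) and ko2 (5.26).

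For the thioredoxin, peroxiredoxin and sulphoxide repair list (17 tested, median 0.43, or 0.11 without ko1 and 0.19 without ko2), Srxn1, the sulphiredoxin that restores overoxidised peroxiredoxins, was lowest at -1.07. It read 20.2 in wild type, 11.5 in het, 5.49 in ko1, just below background, and 5.02 in ko2, without passing (adjusted p = 0.349). Txn2, mitochondrial thioredoxin, stood at -0.74 on its brightest probe set, and at -0.58 and 0.54 on the others. All of them were above background on every array. They disagreed in sign, so no direction is given for Txn2. The highest by fitted value were Msrb2 and Msra, methionine sulphoxide reductases. Msrb2 was above background in ko1 alone (6.67), and Msra on all arrays but wild type. Among partners of superoxide and peroxide handling (8 tested, median -0.52, or -0.26 without ko1 and -0.22 without ko2), Ppargc1a was below background in het and ko1 and read 9.13 in wild type and 6.67 in ko2. Foxo1 stood at -0.94 on its brightest probe set, and at 0.42 on another that was also above background on every array. Foxo3, another FOXO factor, stood at 1.36 on its brightest probe set, and at -0.08 on another, below background in het only. The remaining probe sets, below background in wild type and het, gave 3.19 and 0.49 for Foxo1 and 0.10 for Foxo3. The probe sets of each gene disagreed in sign, so no direction is given for either. Aifm1 stood at 0.19. Nrf2 and its regulators (11 tested, median 0.26, or 0.06 without ko1) lay near the median gene. Nfe2l2, the gene of Nrf2 itself, read 18.9 in wild type, 7.57 in het, 11.2 in ko1 and 13.0 in ko2, a difference of 0.13. Keap1 stood at -0.26. The ends of the list were Mafg (-0.47) and Btrc (-0.45, with het and ko1 below background) at the low side and Nfe2l1 (0.83) and Ikbkb (fitted value 1.51, with wild type and ko1 below background) at the high side.

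**Figure D3:**
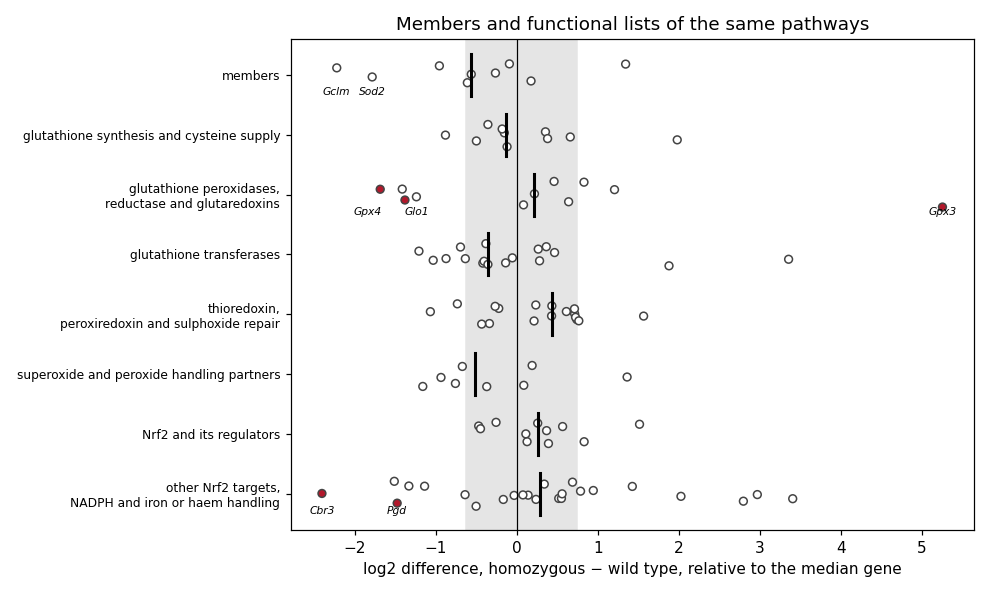
Log2 difference of homozygous minus wild type, with the median over all tested genes taken off (x axis), for the 9 measured members and the 98 tested genes of 7 functional lists (y axis, jittered). Each circle is a gene, filled circles passed the limma test (members are not tested here), thick bars are list medians and the grey band holds the middle 50% of all genes. Gpx3 stands alone at a fitted value of 5.26, with wild type below background, and Cbr3, at -2.41, is the list gene on the level of Gclm (-2.22).

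The genes most like Gclm and Sod2 across the 4 arrays were found by the distance between log2 profiles, with each array centred on its median gene and each gene on its own mean. With only 4 arrays, this is a description. For Gclm they were Sdc1, Fcgr4 and Dll4 (distances of 0.133, 0.175 and 0.179). Sdc1, which encodes the proteoglycan syndecan, read 12.8 in wild type, 6.74 in het, 0.910 in ko1 and 1.08 in ko2. For Sod2 they were 6330409D20Rik, Ckap2l and Zfp940 (distances of 0.156, 0.160 and 0.176), each with 13.7 to 22.8 in wild type and 0.818 to 2.06 in ko1. The homozygous and het signals of the Gclm neighbours were all below background, so only their wild type signals were above it. For the Sod2 neighbours the ko1 and het signals were all below background. The likeness of these profiles thus rests in large part on signals below background.

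The differences of the members from wild type rest on 1 array, which was also the brightest and had the lowest actin ratio.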

How the data were processed

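Total RNA (8 microgram per culture) was extracted with Trizol, biotin-labelled and hybridised to Affymetrix arrays, per the labels' protocols. The authors deposited 1 intensity per probe set and array, on a linear scale, from MAS5 (per the submitters' processing notes); how MAS5 was scaled is not stated. Of 45101 probe sets, 34958 had 1 gene symbol in the platform annotation, 932 several and 9211 none; those with several or none were left out. Symbols were matched by gene ID to RefSeq, and 0 changed.

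Signals were analysed as log2(signal + 0.675), the 20th percentile of all values; fold changes on that scale understate those of dim genes. The brightest probe set on average stood for its gene, and the 13729 genes whose mean signal exceeded 2.55 (the 40th percentile) were tested. limma 3.58.1 in R 4.3.3 fitted 1 mean per genotype with an intensity trend and Benjamini-Hochberg adjustment. The fit has 1 residual degree of freedom, from the pair of homozygous arrays, and 47.8 in all after limma's pooling over genes, so the p-values speak of the spread between these arrays, which may be technical. The script was tested on simulated data. Arrays have no depth; their number limits the precision.

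The members and lists were chosen with earlier results of these data known. Named genes were all members, the called genes of each list, and the 2 highest and 2 lowest of each, with the 3 profiles nearest to Gclm and to Sod2; Me1, Gss, Nfe2l2 and Keap1 were named beside these after their values were seen. Alternatives were other pseudocounts, normalizations, filters, treatments of probe sets, trend, groups and left-out arrays.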

Additional observations from a re-analysis of the deposited data

How the results depend on the processing

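No paired analysis was possible because the wild type and heterozygous groups hold 1 array each and share fewer than 2 replicate numbers with the homozygous group. The calls in homozygous minus wild type of the pathway lists were the least stable result. The 4 falls became 0 with a pseudocount of 0.0422, after quantile normalization, after median centring, with no signal filter, with probe sets averaged and without the intensity trend, and 1 with every probe set tested or in the fit of 2 groups. The 1 rise became 0 under those same settings, except median centring, every probe set and 2 groups, where it was 1. With the pseudocount at the 40th percentile both counts stayed within 1.5 times. Against heterozygous, the 1 rise became 2 with the pseudocount at the 40th percentile and with every probe set tested, and 0 under the other settings run. The counts of 0 for heterozygous minus wild type, in members and lists, did not change. The members' median against wild type moved from -0.56 to -0.24 with probe sets averaged, and ranged from -0.91 (ko1 alone) to -0.48 (ko2 alone). The median over the pathway lists moved from 0.13 to 0.18 with the smaller pseudocount, 0.0710 with the larger one, 0.0708 with no filter, 0.0822 with probe sets averaged, and -0.0255 (without ko1) to 0.0258 (without ko2). With probe sets averaged Gclm went to -1.07, its second probe set being at background, and Sod2 to -1.07, and the list medians of superoxide partners, peroxidases and thioredoxin genes went to -0.02, -0.02 and 0.08. The total degrees of freedom fell from 47.8 to 9.26 after quantile normalization and 6.45 without the trend.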
